A study of Mus musculus with 6 samples.

Results

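Potassium channels are membrane pores that let potassium leave or enter a cell and so set its membrane potential. In endothelium a more negative membrane potential favours calcium entry, and the signal can pass to neighbouring cells through gap junctions. Pore-forming subunits fall into voltage-gated channels, inward rectifiers, tandem-pore-domain leak channels and channels opened by calcium or sodium, and many of them assemble with modifier or auxiliary subunits. The genes described here are the entries of the deposited table whose symbol starts with Kcn. Of 95 such entries, 93 were kept, among 23472 named genes in all. The noncoding transcript Kcnq1ot1 and 1 further entry were left out. Of the 93 genes, 10 had no count in any library, 36 had some counts but did not reach 10 counts in 3 libraries, and 47 reached it and were tested.

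Transcript levels came from liver sinusoidal endothelial cells (LSECs), the fenestrated endothelium of the hepatic sinusoids, of C57BL/6 mice aged 7 to 8 weeks. Of the libraries, 3 were from RBPjcKO mice, a conditional knockout of Rbpj, the DNA-binding factor through which Notch receptors act on transcription, and 3 were from wild-type mice. Both genotypes had received tamoxifen by intraperitoneal injection. The promoter that drives Cre, the number of mice per library and the way the cells were purified were not given in the sources used here. The p-values therefore rest only on the spread among the 6 libraries, which may be technical. Rbpj had 17.0, 19.8 and 17.6 CPM in the RBPjcKO libraries, against 41.6, 46.9 and 45.5 CPM in the wild-type libraries. Reads from parts of the gene that remain intact are included in these values. CPM here are read counts relative to the library total and scaled by TMM, a normalisation that sets aside the most extreme genes, and levels of different genes are compared only as the deposited RPKM, which are also divided by gene length.

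Named genes received 38740589 to 40459702 counts in the RBPjcKO libraries and 30958761 to 38203775 in the wild-type libraries. All 10 markers of LSECs and endothelium were detected, with a summed level of 22850 to 26800 CPM in RBPjcKO and 23810 to 27190 CPM in wild-type libraries. Of them, 1 was called lower and none higher, and single markers moved in opposite directions. Clec4g stood at 1557 to 2249 CPM in RBPjcKO and 3390 to 3919 CPM in wild type. Kdr and Tek were also lower in each RBPjcKO library, while Stab1, Stab2 and Cdh5 were higher in each. Hepatocyte markers summed to 1645 to 4803 CPM in RBPjcKO, the highest in replicate 3, and 1191 to 2251 CPM in wild type. Kupffer cell and macrophage markers stood at 397 to 1150 CPM in RBPjcKO, the lowest in replicate 2, and 863 to 1948 CPM in wild type, and cholangiocyte markers at 85.0 to 124 CPM in RBPjcKO and 199 to 407 CPM in wild type. Stellate cell and fibroblast markers stood at 1099 to 1712 and 1715 to 1949 CPM, lymphocyte markers at 14.96 to 47.3 and 43.7 to 46.2 CPM, and granulocyte, erythroid and platelet markers at 312 to 618 and 80.6 to 312 CPM, each in RBPjcKO and wild type. In such bulk libraries fewer cells of a type and less RNA per cell cannot be told apart.

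RBPjcKO libraries held more Kcnj8, Kcnj2 and Kcne3 transcript and less Kcnk3 and Kcnd3 than wild-type libraries. The abundant ATP-sensitive channel gene Kcnj8 rose 2.81-fold and the inward rectifier gene Kcnj2 rose 5.83-fold. Kcne3, an auxiliary subunit gene, rose 34.1-fold, and Kcnk5, a leak channel gene, rose 2.59-fold. The low-level genes Kcnk3 and Kcnd3 fell 6.37-fold and 4.71-fold. Of the 47 tested genes, 9 were higher and 8 lower in RBPjcKO at an adjusted p under 0.05 (quasi-likelihood test of edgeR, Benjamini-Hochberg adjustment over all 14905 genes tested; each adjusted p below is from it), which is 36.2% of them, where 16.7% of all genes tested were called, 8.97% higher and 7.74% lower. Of the 47, 15 (31.9%) were called with an absolute log2 fold change of 1 or more, beside 6.02% of all genes tested, and the genotypes did not overlap for 20 (42.6%), beside 40.2%. These shares are a description: Kcne3, Kcnh1 and Kcnc2 were known to be among the largest rises when the family was picked, and Kcnc2, Kcnh1 and Kcnj14 reached 10 counts only in the 3 RBPjcKO libraries and so had to differ. The median log2 fold change was -0.13 over the 47 genes and -0.01 over all genes tested, with 21 of the 47 above 0 and 26 below. Hepatocyte markers were called higher in RBPjcKO for 5 of 14, and with their level as a covariate Kcne3, Kcnh1, Kcnj2, Kcnj8 and Kcnk3 kept their call while the other 12 channel genes lost it, Kcnc2 at adjusted p = 0.0546 and Kcnk5 at 0.0553 in edgeR. All 17 kept their sign with the covariate. The log2 fold change grew in size with it for Kcnc2, Kcng2, Kcnj2, Kcnj8, Kcnj10, Kcnj15, Kcnk3 and Kcnma1. It shrank for the other called channel genes. Of these, Kcne3 stood at 4.2, beside 5.09 without the covariate, and Kcnh1 at 5.12, beside 5.91. Kcnj14 stood at 2.17, beside 2.58, Kcns3 at -0.72, beside -1.16, and Kcnk5 at 1.34, beside 1.37. Of those that grew, Kcng2 stood at 1.36, beside 1.29, Kcnj15 at 0.79, beside 0.60, and Kcnma1 at -2.13, beside -1.76.

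At the edge of the count limit, Kcng4, Kcnh2, Kcnj9 and Kcnn1 reached 10 counts in 3 libraries spread over both groups, with 1 to 19 counts per library. Just outside it, Kcnmb3 had 2 to 10 counts in RBPjcKO and 4 to 11 in wild-type libraries, and Kcnn3 had 1 to 5 in RBPjcKO and 0 to 22 in wild-type libraries. Genes that did not reach the limit had at most 22 counts in a library. The 10 without any count were Kcna10, Kcne2, Kcng1, Kcnh5, Kcnh8, Kcnj12, Kcnk15, Kcnk16, Kcnv1 and Kcnv2.

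**Figure D1:**
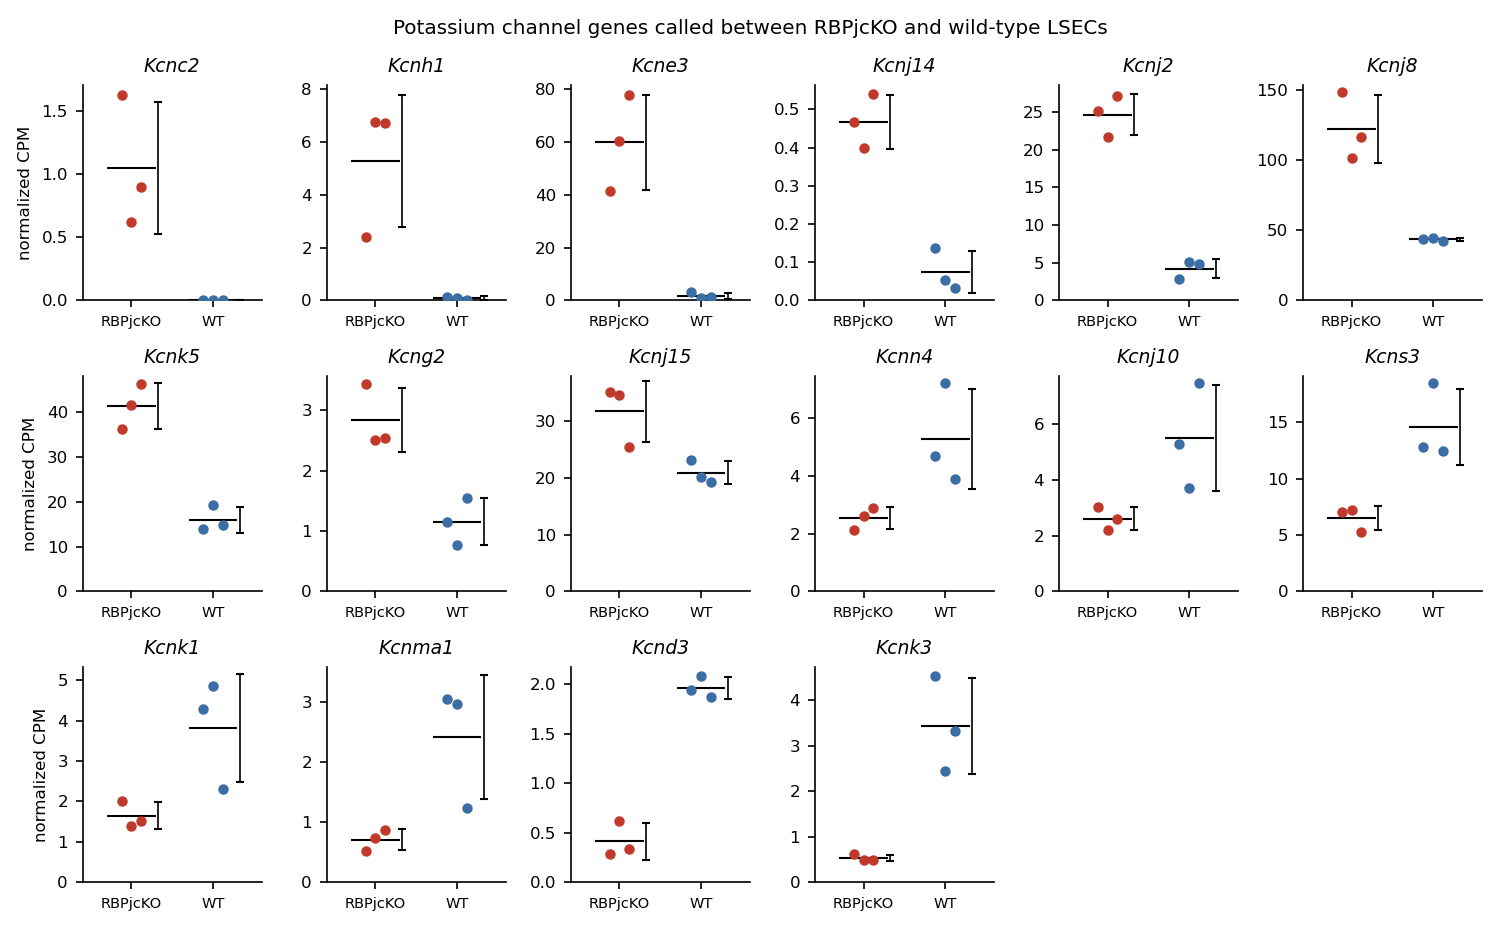
Normalised CPM (linear axes from 0) of 16 of the 17 potassium channel genes called between genotypes, ordered by log2 fold change, with RBPjcKO libraries in red and wild-type (WT) libraries in blue. Points are single libraries, horizontal lines group means and bars the SD (n = 3 each). In all 16 panels the 3 libraries of one genotype lie wholly above those of the other, and 9 panels are higher in RBPjcKO.

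Inward rectifiers pass potassium more readily into the cell than out of it and hold the membrane near the potassium equilibrium potential. Of 15 such genes, 8 were tested, of which 4 rose, 1 fell and 3 did not pass. Kcnj8 encodes Kir6.1, the pore of ATP-sensitive channels of vessels (chromosome 6, 142564939 to 142571356, GRCm38, minus strand). It had 149, 102 and 116 CPM in the RBPjcKO libraries, against 44.1, 44.2 and 42.3 CPM in the wild-type libraries. The wild-type libraries lay within about 2 CPM of each other, and the lowest RBPjcKO library stood above all of them. The log2 fold change was 1.49 (SE 0.14, n = 3 each) with adjusted p = 0.00169 in edgeR. Kcnj2 encodes Kir2.1, a strong inward rectifier that sets the resting potential of many endothelial cells (chromosome 11, 111066164 to 111076825, plus strand). It had 25.1, 21.7 and 27.2 CPM in the RBPjcKO libraries, against 2.81, 5.06 and 4.81 CPM in the wild-type libraries. The groups did not overlap, and the log2 fold change was 2.54 (SE 0.23, n = 3 each; adjusted p = 0.0015 in edgeR). Leaving out any of the 6 libraries kept both calls, at adjusted p of up to 0.0128 for Kcnj8 and 0.008 for Kcnj2.

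The 250 bases before the RefSeq start of both genes (GRCm38.p6, 5′ to 3′ on the gene's strand) are given because Kcnj8 and Kcnj2 are the most abundant inward rectifier gene and the one with the largest change above 1 CPM. The core letters bound by RBPJ, TGGGAA on either strand, are in capitals where they occur, and neither upstream stretch holds them.
Kcnj8, chr6:142571615-142571864, minus strand: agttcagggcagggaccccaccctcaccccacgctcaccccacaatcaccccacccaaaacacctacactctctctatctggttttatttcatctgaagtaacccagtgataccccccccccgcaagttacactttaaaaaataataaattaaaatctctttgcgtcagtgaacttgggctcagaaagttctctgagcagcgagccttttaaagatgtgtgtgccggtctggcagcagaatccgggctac
Kcnj2, chr11:111065914-111066163, plus strand: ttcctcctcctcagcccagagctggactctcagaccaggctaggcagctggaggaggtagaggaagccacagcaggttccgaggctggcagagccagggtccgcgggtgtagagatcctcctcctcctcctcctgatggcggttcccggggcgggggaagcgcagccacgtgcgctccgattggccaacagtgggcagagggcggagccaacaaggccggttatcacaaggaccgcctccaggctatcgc
The letters stand at the start of Kcnj8 and, as the reverse complement, 33 bases after the start of Kcnj2, shown here in 30 bases each.
Kcnj8, chr6:142571597-142571626, minus strand: aatccgggctacTGGGAAccgagctggctc
Kcnj2, chr11:111066184-111066213, plus strand: ccagcgcgcagccTTCCCAgcaccggcaag

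Kcnj15, which encodes Kir4.2, had 35.0, 34.5 and 25.4 CPM in the RBPjcKO libraries, against 23.1, 20.2 and 19.2 CPM in the wild-type libraries, a 1.52-fold rise (log2 fold change 0.60, SE 0.15, adjusted p = 0.0352 in edgeR). RBPjcKO replicate 3 lay close to wild-type replicate 1, and of the 6 fits that left out a library only that without RBPjcKO replicate 3 kept the call, with adjusted p from 0.0147 there to 0.124 without wild-type replicate 2. Kcnj14, which encodes Kir2.4, stood at 0.466, 0.398 and 0.539 CPM in RBPjcKO and 0.137, 0.0535 and 0.0317 CPM in wild-type libraries, from 16 to 21 counts in RBPjcKO and 1 to 5 in wild type, and was called higher (log2 fold change 2.58, SE 0.56, adjusted p = 0.0226 in edgeR). Its adjusted p was 0.0254, 0.0867 and 0.0602 without wild-type replicate 1, 2 and 3, and without any RBPjcKO library it fell under the count limit. As Kcnj14 passed that limit only through the RBPjcKO libraries, these fits could not test its rise.

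Kcnj10 and Kcnj16 encode Kir4.1 and Kir5.1, which can assemble into a joint channel. Kcnj10 had 3.03, 2.19 and 2.59 CPM in the RBPjcKO libraries, against 5.30, 3.69 and 7.47 CPM in the wild-type libraries, a 2.10-fold fall (adjusted p = 0.0467 in edgeR) that was kept in the fit without wild-type replicate 2 and lost in the other 5, at adjusted p of up to 0.124. Kcnj16 had 4.71, 0.672 and 3.08 CPM in RBPjcKO and 7.26, 4.44 and 5.19 CPM in wild-type libraries and did not pass (log2 fold change -0.998, SE 0.587). RBPjcKO replicate 2 was low for Kcnj16 and for Kcnk13, at 0.772 CPM against 4.89 and 3.57 CPM in the other RBPjcKO libraries. The same library was low for the Kupffer cell marker Clec4f, at 72.2 CPM against 394 and 257 CPM in the other RBPjcKO libraries and 285 to 559 CPM in wild type. Vsig4, Cd5l, Timd4, Csf1r and Cd68 were also lowest there among RBPjcKO libraries, but Marco was highest, at 66.3 CPM against 44.8 and 17.1 CPM. Wild-type replicate 2, with the lowest Kcnj10 and Kcnj16 of its group, also had the lowest Clec4f. Kcnk13 was alike in the wild-type libraries, at 4.67, 4.5 and 4.68 CPM. Kcnj10 was highest in wild-type replicate 3 and Clec4f in wild-type replicate 1. The part of Kupffer cells in the values of these channel genes was not tested. Of the other tested inward rectifiers, Kcnj5 and Kcnj9, whose products join G protein-gated channels, had adjusted p of 0.612 and 0.322 in edgeR.

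Kcnj16 and Kcnj2 are neighbours on chromosome 11, on the same strand and 38.2 kb apart (Kcnj16 at 110968033 to 111027967). In RPKM, Kcnj2 stood at 3.75 ± 0.438 in RBPjcKO and 0.654 ± 0.208 in wild type, and Kcnj16 at 0.578 ± 0.412 in RBPjcKO and 1.16 ± 0.261 in wild type (SD, n = 3 each). Per length, Kcnj2 was above Kcnj16 in each RBPjcKO library and below it in each wild-type library. On chromosome 1, Kcnj10 lies 11.9 kb from Kcnj9, which at 5 to 11 counts in RBPjcKO and 6 to 19 in wild type did not pass.

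The tandem-pore-domain genes encode leak channels that are open at rest. Of 13, 7 were tested, of which 1 rose, 2 fell and 4 did not pass. Kcnk5 encodes TASK-2, which opens in alkaline surroundings (chromosome 14, 20140058 to 20181782). It had 36.2, 41.7 and 46.4 CPM in the RBPjcKO libraries, against 13.8, 19.4 and 14.7 CPM in the wild-type libraries. All RBPjcKO libraries lay well above the wild-type range (log2 fold change 1.37, SE 0.16, n = 3 each, adjusted p = 0.00325 in edgeR), and adjusted p reached 0.013 when a library was left out. Kcnk3 encodes TASK-1, which closes in acid surroundings (chromosome 5, 30588170 to 30625270). It had 0.622, 0.498 and 0.488 CPM in the RBPjcKO libraries, against 4.53, 2.44 and 3.32 CPM in the wild-type libraries. The RBPjcKO libraries lay close together near 0.5 CPM (log2 fold change -2.67, SE 0.32, n = 3 each, adjusted p = 0.00371 in edgeR, up to 0.015 on leaving out a library). Gm9899 overlaps Kcnk3 on the other strand and had 2 to 6 counts in RBPjcKO and 13 to 22 in wild-type libraries, beside 19 to 24 and 91 to 166 counts of Kcnk3. Without a known strand setting, reads of the shared stretch cannot be assigned with certainty.

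Kcnk1, which encodes TWIK-1, had 2.02, 1.39 and 1.51 CPM in the RBPjcKO libraries, against 4.29, 4.84 and 2.31 CPM in the wild-type libraries, a 2.32-fold fall (adjusted p = 0.0453 in edgeR). It was called without wild-type replicate 3 and lost its call without any other single library, at adjusted p of up to 0.143. Kcnk6, which encodes TWIK-2 and is the most abundant gene of this class, had 101, 115 and 76.6 CPM in the RBPjcKO libraries, against 114, 119 and 93.3 CPM in the wild-type libraries. The groups overlapped, and the log2 fold change was -0.16 (SE 0.16, adjusted p = 0.512 in edgeR). Kcnk2, which encodes the stretch-sensitive channel TREK-1, stood at 0.233 to 0.847 CPM in RBPjcKO and 0.273 to 0.728 CPM in wild-type libraries and did not pass.

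Voltage-gated channels open on depolarisation. Of 30 pore-subunit genes, 15 were tested, of which 2 rose, 2 fell and 11 did not pass. Kcnd3 encodes Kv4.3, a fast inactivating channel (chromosome 3, 105452330 to 105674002). It had 0.285, 0.622 and 0.334 CPM in the RBPjcKO libraries, against 1.94, 2.09 and 1.87 CPM in the wild-type libraries. The wild-type libraries lay close together and above all RBPjcKO libraries (log2 fold change -2.24, SE 0.36, n = 3 each, adjusted p = 0.00933 in edgeR, up to 0.0402 on leaving out a library). 1700095B22Rik overlaps Kcnd3 on the other strand, at 0 or 1 counts in RBPjcKO and 0 to 9 in wild-type libraries.

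Kcnh1 encodes the ether-a-go-go channel Kv10.1, known mainly from brain (chromosome 1, 192190872 to 192510158). It had 2.38, 6.75 and 6.70 CPM in the RBPjcKO libraries, against 0.137, 0.107 and 0 CPM in the wild-type libraries, from 92 to 271 counts in RBPjcKO and 0 to 5 in wild type. RBPjcKO replicate 1 was the lowest of the RBPjcKO libraries and still far above wild type. The log2 fold change was 5.91 (SE 0.73, n = 3 each, adjusted p = 0.00377 in edgeR), a fitted value that rests on 9 wild-type counts. Kcnc2 encodes Kv3.2, known from fast-spiking neurons (chromosome 10, 112271123 to 112466304). It had 63, 25 and 35 counts in the RBPjcKO libraries, or 1.63, 0.622 and 0.898 CPM, against no count in the wild-type libraries. The RBPjcKO mean of 1.05 CPM was at least 37-fold higher than the floor that 3 counts in the wild-type libraries together would give, which covers counting error only. Kcnc2 was called (adjusted p = 0.00903 in edgeR). Both genes passed the count limit only through the RBPjcKO libraries and fell under it without any of these, so they had to differ. Leaving out a wild-type library therefore could not test the rise, though the calls stayed, at adjusted p of up to 0.0242 for Kcnh1 and 0.0296 for Kcnc2 in edgeR. Of the 9 neuron and glia markers, 4 were tested and 1 was called higher. That gene, the neuronal tubulin gene Tubb3, had 13.6, 3.93 and 5.11 CPM in the RBPjcKO libraries, against 0.983, 1.31 and 1.04 CPM in the wild-type libraries (log2 fold change 2.76, SE 0.50, adjusted p = 0.0131 in edgeR), and was highest in RBPjcKO replicate 1, where Kcnh1 was lowest and Kcnc2 highest. The summed level of the list did not overlap between the genotypes, at 25.1 to 38.6 CPM in RBPjcKO and 18.4 to 20.8 CPM in wild type. Syt1 stood at 0.207 to 0.488 CPM in RBPjcKO and 0.285 to 0.382 CPM in wild-type libraries, and Snap25 was at 0 in all 6. The part of such cells in the rises of Kcnh1 and Kcnc2 was not tested.

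Kcnq1 encodes Kv7.1, the delayed rectifier of heart and epithelia, and had 74.6, 70.7 and 63.9 CPM in the RBPjcKO libraries, against 63.4, 55.9 and 54.2 CPM in the wild-type libraries. The groups did not overlap, but the difference did not pass (log2 fold change 0.27, SE 0.10, adjusted p = 0.0987 in edgeR). The noncoding Kcnq1ot1 lies inside Kcnq1 on the other strand, with 439 to 501 counts in RBPjcKO and 418 to 620 in wild-type libraries, beside 2489 to 2880 and 1711 to 2323 counts of Kcnq1. Kcna2, a Shaker-type channel gene, stood at 10.5, 3.81 and 5.42 CPM in RBPjcKO and 13.6, 10.1 and 18.4 CPM in wild-type libraries (adjusted p = 0.0902 in edgeR). The other 9 tested genes that did not pass had group means of at most 1.48 CPM.

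Modifier subunits form no channel of their own and change other voltage-gated channels when they join them. Of 10 such genes, 3 were tested, of which 1 rose, 1 fell and 1 did not pass. Kcns3 encodes Kv9.3 and had 7.07, 7.25 and 5.31 CPM in the RBPjcKO libraries, against 12.8, 18.5 and 12.5 CPM in the wild-type libraries. The groups did not overlap (log2 fold change -1.16, SE 0.21, n = 3 each, adjusted p = 0.0132 in edgeR, up to 0.0475 on leaving out a library). Kcng2 encodes Kv6.2 and had 3.44, 2.51 and 2.54 CPM in the RBPjcKO libraries, against 1.15, 0.776 and 1.55 CPM in the wild-type libraries, a 2.45-fold rise (adjusted p = 0.0344 in edgeR). That call was kept without wild-type replicate 3 and lost without any other single library, at adjusted p of up to 0.102.

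Auxiliary subunits bind a pore and change its opening or its traffic to the membrane. Of 12 such genes, 7 were tested, and Kcne3 alone was called. Kcne3 encodes a small membrane protein that holds Kv7.1 open in intestinal epithelium (chromosome 7, 100176670 to 100184869). It had 41.5, 60.4 and 77.6 CPM in the RBPjcKO libraries, against 3.14, 0.776 and 1.33 CPM in the wild-type libraries, from 1604 to 3024 counts in RBPjcKO and 29 to 115 in wild type. Both groups varied widely among themselves, with wild-type replicate 1 the highest of its group, and the lowest RBPjcKO library still stood more than 10-fold above it. The log2 fold change was 5.09 (SE 0.49, n = 3 each, adjusted p = 0.00179 in edgeR) and lay between 4.71 and 5.84 when a library was left out, with adjusted p of up to 0.0101. Kcnab2, a beta subunit gene of Shaker-type channels, stood at 7.07 ± 1.39 CPM in RBPjcKO and 6.60 ± 0.781 CPM in wild type (SD, n = 3 each; adjusted p = 0.754 in edgeR). Kcnab1 had 0.647, 0.573 and 1.59 CPM in RBPjcKO and 1.64, 2.65 and 3.58 CPM in wild-type libraries (adjusted p = 0.0733 in edgeR). Kcne4 had 2.41, 2.47 and 7.85 CPM in RBPjcKO, where replicate 3 stood apart, and 2.24, 2.44 and 2.50 CPM in wild-type libraries (adjusted p = 0.255 in edgeR).

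RefSeq lists a pair of starts for Kcne3, and the 250 bases before each are given because Kcne3 had the largest change among the channel genes above 1 CPM in both groups. The first start is that of the deposited table. The stretch before the second holds TGGGAA (capitals) at position -22 relative to that start, and that before the first does not.
Kcne3, first start, chr7:100176420-100176669, plus strand: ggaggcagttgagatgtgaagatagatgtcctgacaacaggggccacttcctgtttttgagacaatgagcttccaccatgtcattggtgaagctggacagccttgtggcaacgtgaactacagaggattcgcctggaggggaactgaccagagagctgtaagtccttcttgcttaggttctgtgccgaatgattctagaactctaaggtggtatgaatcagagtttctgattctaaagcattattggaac
Kcne3, second start, chr7:100178433-100178682, plus strand: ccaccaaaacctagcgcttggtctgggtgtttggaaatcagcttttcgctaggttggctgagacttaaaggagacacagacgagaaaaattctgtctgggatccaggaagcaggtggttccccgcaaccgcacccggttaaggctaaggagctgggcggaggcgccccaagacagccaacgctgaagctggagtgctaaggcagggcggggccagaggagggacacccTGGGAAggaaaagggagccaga
Among the genes called lower, Kcnd3 holds the letters at position -170 relative to its start.
Kcnd3, chr3:105451708-105451737, plus strand: gtggacagtgaaTGGGAAacagacagccag
Promoters of 300 bases, 250 before and 50 after each RefSeq start, were searched on both strands for 69 of the 93 genes. TGGGAA was found in 23 of the 69 genes (33.3%), where it was found in 28.3% of 27025 genes of the RefSeq table, in 17 of the 35 tested genes that had a promoter in it (48.6%), and in 3 of 7 genes called higher and 1 of 6 called lower. A gene with several promoters has more stretches to hold the letters. Counted by promoter, the shares were 27.7% for the 69 genes, 36.4% for the 35 tested genes and 25.6% for the RefSeq table, which was not limited to tested genes. The median GC content was 59.7% in the promoters of the channel genes and 52.8% in all promoters. The longer GTGGGAA, which contains it, was found in 5 of the 69 genes (7.25%) and 7.25% of all genes, and in no promoter of the 13 called genes searched. A match of letters is a description and not a binding site.

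**Figure D2:**
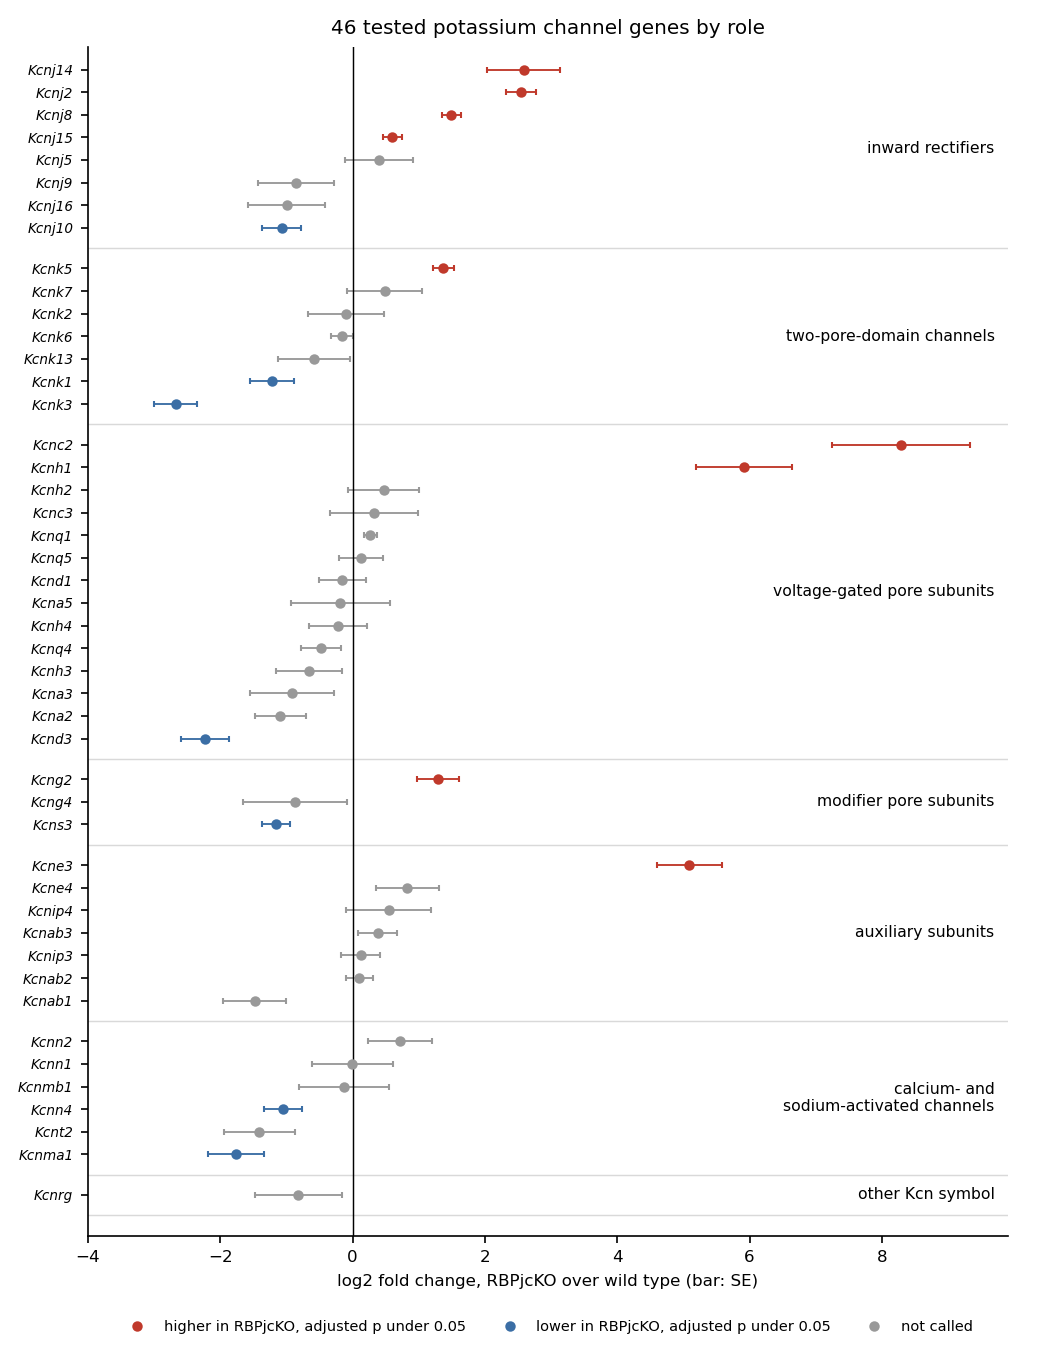
Log2 fold change (RBPjcKO over wild type, x axis) of 46 of the 47 tested potassium channel genes grouped by role, with the tandem-pore-domain genes under the name two-pore-domain channels. Bars are the SE of the fit (n = 3 each), red points were called higher, blue lower and grey not called. Kcnc2 lies farthest right with no wild-type count, inward rectifiers lie on both sides of 0 with 4 called higher and 1 lower, and Kcne3 stands apart from the 6 other auxiliary subunit genes.

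Calcium-activated channels turn a rise of calcium into hyperpolarisation, and those of small and intermediate conductance serve this role in arterial endothelium. Of 12 genes for calcium- and sodium-activated channels, 6 were tested, of which 2 fell and 4 did not pass. Kcnn4 encodes KCa3.1, the intermediate conductance channel, and had 2.12, 2.61 and 2.9 CPM in the RBPjcKO libraries, against 4.69, 7.23 and 3.89 CPM in the wild-type libraries (log2 fold change -1.05, SE 0.28, adjusted p = 0.0438 in edgeR). Kcnma1 encodes the large conductance BK channel and had 0.518, 0.747 and 0.873 CPM in the RBPjcKO libraries, against 3.06, 2.97 and 1.23 CPM in the wild-type libraries (log2 fold change -1.76, SE 0.42, adjusted p = 0.0305 in edgeR). Wild-type replicate 3 was the lowest of its group for both genes, and its omission was the only one that kept the calls, at adjusted p = 0.0432 and 0.0172. Without any other single library adjusted p was up to 0.126 for Kcnn4 and 0.0995 for Kcnma1. Kcnn3, the small conductance channel gene of endothelium, did not reach the count limit. Kcnrg, outside these classes, encodes a cytosolic regulator of channel assembly and had 0.829, 0.324 and 0.257 CPM in RBPjcKO and 0.355, 1.498 and 0.633 CPM in wild-type libraries. It overlaps Dleu2 on the other strand and did not pass.

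Cholangiocyte markers were lower in RBPjcKO, with 4 of 7 called lower, none called higher, none at 0, and summed levels of 85.0, 91.6 and 124 CPM in RBPjcKO and 227, 407 and 199 CPM in wild-type libraries. Wild-type replicate 2 had the highest and replicate 3 the lowest sum, the same order as Kcnk1, Kcnn4 and Kcns3 in wild-type libraries. Spp1, the largest part of the sum, had this order, at 167, 269 and 103 CPM in wild-type replicates 1, 2 and 3, as did Pkhd1. Krt19, Krt7, Epcam, Sox9 and Cftr were instead lowest in wild-type replicate 1. In RBPjcKO the sum was highest in replicate 3, where Kcnn4 was highest at 2.9 CPM but Kcns3 lowest at 5.31 CPM. Kcnk1 was highest in RBPjcKO replicate 1, at 2.02 CPM. The part of biliary cells in the falls of Kcnk1, Kcnn4 and Kcns3 was not tested.

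The per-length make-up of the channel transcripts differed between the genotypes. The deposited RPKM of all 93 genes summed to 169, 163 and 171 in the RBPjcKO libraries, against 122, 124 and 108 in the wild-type libraries. Kcnj8 made up 27.5% ± 4.71 of that sum in RBPjcKO and 14.2% ± 0.917 in wild type, and Kcne3 17.2% ± 5.27 in RBPjcKO and 0.711% ± 0.457 in wild type (SD, n = 3 each). In RBPjcKO libraries the order by mean RPKM began with Kcnj8 (46.2 ± 8.52) and Kcne3 (28.9 ± 9.09), whose ranges lay next to each other at up to 37.9 RPKM for Kcne3 and from 38.6 for Kcnj8, followed by Kcnk6 (19.7 ± 3.80), and Kcnq1 stood at 19.1 ± 1.23, within the range of Kcnk6. In wild-type libraries Kcnk6 (22.3 ± 2.84) stood above Kcnj8 (16.7 ± 0.597) and Kcnq1 (16.0 ± 0.871), of which the last pair overlapped, and Kcne3 was at 0.839 ± 0.565. Between 11 and 13 genes per RBPjcKO library and 11 to 14 per wild-type library reached 1 RPKM. By role, inward rectifiers summed to 56.5 ± 9.18 RPKM in RBPjcKO and 23.0 ± 0.181 in wild type, auxiliary subunits to 33.9 ± 10.8 and 5.41 ± 0.381, voltage-gated pore subunits to 40.8 ± 3.28 and 51.1 ± 5.08, and tandem-pore-domain channels to 32.1 ± 2.80 and 30.1 ± 3.78, each in RBPjcKO and wild type. Tandem-pore-domain sums overlapped between the groups and the other sums named did not. Kcnj8 alone held 46.2 and 16.7 RPKM of the inward rectifier sums in RBPjcKO and wild type. Kcne3 alone held 28.9 and 0.839 RPKM of the auxiliary subunit sums.

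**Figure D3:**
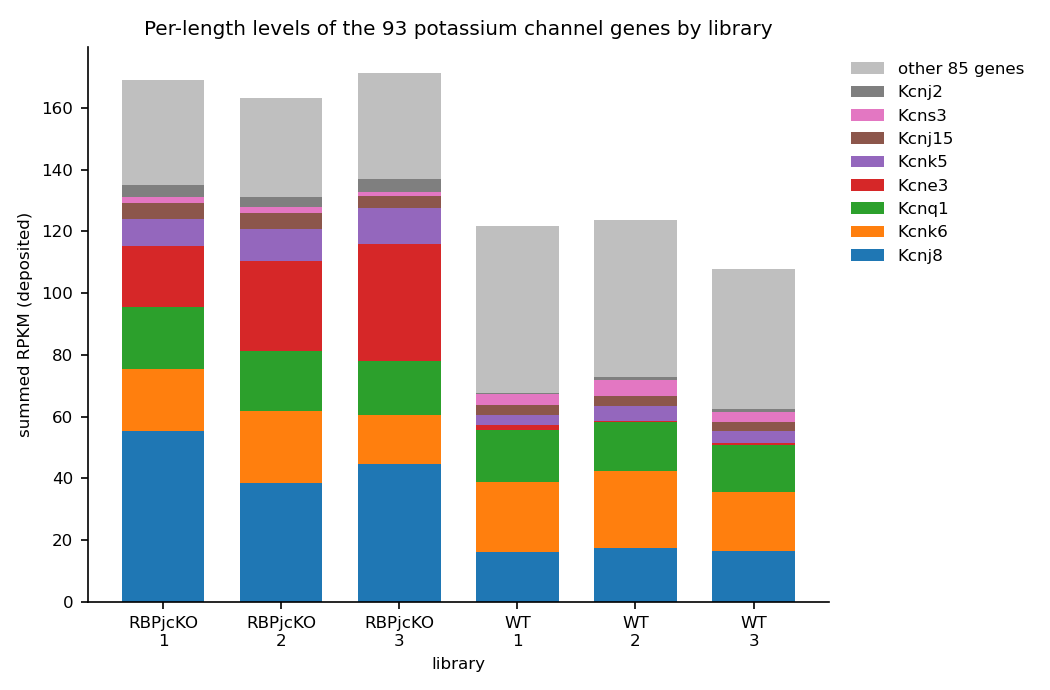
Stacked deposited RPKM (y axis) of the 93 potassium channel genes in each library, RBPjcKO on the left and wild type (WT) on the right, with 8 abundant genes in colour and the other 85 summed in light grey. The RBPjcKO stacks reach 163 to 171 RPKM and the wild-type stacks 108 to 124, with wider Kcnj8 and Kcne3 segments in RBPjcKO.

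Channel partners and other potassium transport genes were listed by function, with earlier results of these data known, so the share called is a description. Of 50 listed, 33 were tested, and 5 rose and 5 fell (30.3%, beside 16.7% of all genes tested), and 42.4% of the 33 had groups that did not overlap, beside 40.2%. Abcc9 encodes the sulfonylurea receptor SUR2, the partner of Kir6.1. It had 303, 257 and 337 CPM in the RBPjcKO libraries, against 226, 231 and 179 CPM in the wild-type libraries, a 1.41-fold rise (log2 fold change 0.50, SE 0.14, adjusted p = 0.0499 in edgeR) that was kept without RBPjcKO replicate 2 (adjusted p = 0.048) and lost without any other single library, at adjusted p of up to 0.121. It was also lost under upper-quartile scaling (adjusted p = 0.0623 in edgeR) and with library totals alone (0.0558). In RPKM the ratio of Kcnj8 to Abcc9 was 1.69, 1.36 and 1.19 in RBPjcKO and 0.672, 0.658 and 0.814 in wild-type libraries, so that Kcnj8 was above its partner in each RBPjcKO library and below it in each wild-type library. Kcnj8 and Abcc9 also mark pericytes. The 7 other genes of the smooth muscle and pericyte list summed to 95.1 to 185 CPM in RBPjcKO and 123 to 141 CPM in wild-type libraries. The most abundant of them, Rgs5, stood at 75.8 to 144 CPM in RBPjcKO and 93.3 to 105 CPM in wild type. Tagln stood at 11.35 to 24.5 and 12.6 to 13.5 CPM, and Cspg4 at 0.324 to 0.924 and 0.855 to 1.87 CPM, in the same order. Acta2 and Cnn1 overlapped between the groups, and Myh11 and Notch3 were lower in each RBPjcKO library. The part of pericytes in the rises of Kcnj8 and Abcc9 was not tested. The ratio of Kcne3 to Kcnq1 in RPKM was 0.982, 1.505 and 2.14 in RBPjcKO and 0.0873, 0.0245 and 0.0433 in wild-type libraries. Lrrc55, which encodes a gamma subunit of BK channels, stood at 0.647, 1.25 and 1.16 CPM in RBPjcKO and 0, 0 and 0.158 CPM in wild-type libraries and was called (adjusted p = 0.0226 in edgeR). Its adjusted p was 0.0538, 0.0701 and 0.0144 without wild-type replicate 1, 2 and 3. Without any RBPjcKO library Lrrc55 fell under the count limit, so these fits could not test its rise.

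**Figure D4:**
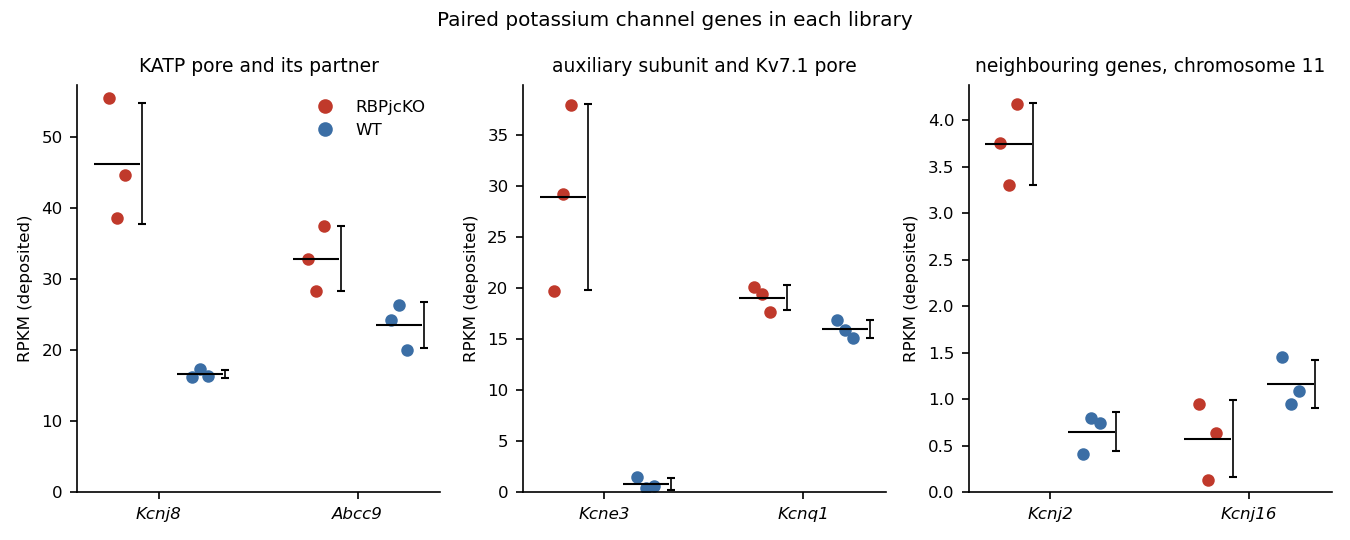
Deposited RPKM (y axes from 0) of Kcnj8 with its partner Abcc9, of Kcne3 with Kcnq1 and of the neighbours Kcnj2 and Kcnj16, RBPjcKO libraries in red and wild-type (WT) libraries in blue, with group means and SD (n = 3 each). Kcne3 reaches 19.7 to 37.9 RPKM in RBPjcKO and 0.388 to 1.47 in wild type, beside Kcnq1 at 17.7 to 20.1 and 15.1 to 16.9.

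The sodium pump, which builds the potassium gradient that these channels use, changed in some of its subunits. Fxyd5, which encodes a small regulator of the pump, had 107, 99.5 and 91.6 CPM in the RBPjcKO libraries, against 45.8, 40.1 and 42.5 CPM in the wild-type libraries, a 2.32-fold rise (adjusted p = 0.000974 in edgeR, up to 0.00791 without a library). Atp1b1 and Atp1b3, beta subunit genes, fell 2.44-fold and 1.49-fold. Both calls were lost on leaving out some single libraries, at adjusted p of up to 0.0967 for Atp1b1 and 0.153 for Atp1b3. Of the potassium chloride cotransporters, Slc12a7 had 46.4, 43.4 and 44.5 CPM in the RBPjcKO libraries, against 86.9, 92.0 and 81.5 CPM in the wild-type libraries, a 1.94-fold fall (adjusted p = 0.00118 in edgeR, up to 0.00824 without a library), while the sodium potassium chloride cotransporter gene Slc12a2 did not pass (adjusted p = 0.903). Slc12a9 rose 1.24-fold and lost its call whichever library was left out, at adjusted p of up to 0.168. Wnk2, a kinase gene of the cotransporter pathway, fell 1.97-fold and kept its call without RBPjcKO replicate 3 or wild-type replicate 3 (adjusted p of up to 0.1 without another library), and Nedd4l, a ubiquitin ligase gene that acts on channels, fell 1.69-fold and lost its call without wild-type replicate 2 (adjusted p = 0.0591). Neither of the 2 tested Hcn genes nor any of the 3 intracellular potassium channel genes was called.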

How the data were processed

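The authors deposited raw read counts per gene and library and RPKM values, per the file headers. The submitters' processing notes list bcl2fastq, TopHat2 2.0.13 and the build mm10 (GRCm38), with no role or order. The strand setting, annotation and counting tool were not given in the sources used here. The deposited RPKM divide each count by gene length and by the column total, checked on the values.

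Of 56825 entries, 33353 cDNA clones were left out because their reads are counted again in genes. Named genes that reached 10 counts in 3 or more libraries were scaled by TMM and compared with edgeR 4.0.16 (R 4.3.3, limma 3.58.1) by its quasi-likelihood test, RBPjcKO over wild type, two-sided, adjusted by Benjamini-Hochberg (threshold 0.05). The SE, approximate, is the absolute log2 fold change divided by the root of the F statistic. The fit was tested on simulated counts. Tables and figures used Python 3.11.15.

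The members and lists were chosen with earlier results of these data known. Named are all called members, the 2 of each role with the highest RPKM, some endothelial channels (Kcnj2, Kcnj8, Kcnn3, Kcnn4, Kcnk2, Kcnma1), called partners, Abcc9 and Slc12a2. A few of these are included in counts and sums but not reported here by name. Others named (Kcna2, Kcnab1, Kcne4, Kcnj5, Kcnj9, Kcnj16, Kcnk13, markers such as Tubb3, the overlapping genes and genes near the count limit) were chosen after their values were seen. Promoters are from RefSeq. Protein sequences were not analysed here. Alternatives included DESeq2 1.42.0, other filters and scalings, a hepatocyte marker covariate and leaving out each library.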

Additional observations from a re-analysis of the deposited data

How the results depend on the processing

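The 17 called channel genes kept their direction under each of the 17 alternatives that could be fitted, and the same 17 were called under each filter, under RLE, upper-quartile and no scaling, with the robust fit and with clones kept. Of these, Kcnc2, Kcnh1 and Kcnj14 passed the count limit only through the RBPjcKO libraries, so their direction was not open. DESeq2 called 9 higher and 10 lower, adding Kcna2 and Kcnab1. With the hepatocyte marker covariate 4 channel genes were called higher (Kcne3, Kcnh1, Kcnj2 and Kcnj8) and 1 lower (Kcnk3), 1 and 1 partner genes, and 129 and 112 of all genes, and the cause was not tested. At an adjusted p under 0.01, 6 channel genes were higher and 2 lower. Partner genes called higher and lower were then 1 and 1, and those of all genes 388 and 216. With a log2 change of at least 1, partner calls were 3 and 1 and those of all genes 466 and 431. Partner genes called higher were 3 under upper-quartile scaling and 3 with clones kept. Without 1 library, channel genes called higher ran from 4 to 7 and lower from 3 to 7, partner genes from 1 to 3 and from 1 to 5, and all genes from 474 to 1061 and from 328 to 827. Of the 17, 7 were called whichever library was left out (Kcnd3, Kcne3, Kcnj2, Kcnj8, Kcnk3, Kcnk5 and Kcns3). Of 34 single-gene log2 fold changes, 29 kept their sign in all alternatives. The other 5 were uncalled genes: with the hepatocyte covariate Kcnab2 stood at -0.14, Kcnk6 at 0.11 and Kcnrg at 0.77, and without 1 library Kcnab2 ran from -0.029 to 0.25, Kcnk2 from -0.67 to 0.25 and Slc12a2 from -0.27 to 0.13. Scalings moved the median of all genes by under 0.1 on the log2 scale. DESeq2 called 1921 genes higher and 1711 lower. No paired analysis was possible because the labels give the libraries no shared replicate numbers. Kcnj14, at 1 to 5 counts in the wild-type libraries, is limited by depth.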
